A study of Homo sapiens with 8 samples.

Results

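SR proteins and hnRNPs are the best known families of RNA-binding splicing regulators, and their transcripts were followed in MCF10A-Hras cells with and without RBM6, before and after ionizing radiation (IR). The members were chosen by name: every row of the count table whose Ensembl gene ID belongs to a protein-coding gene with a symbol beginning SRSF or HNRNP. The rule found 39 genes of 58233 gene IDs, 12 SRSF and 27 HNRNP. MCF10A is a line of human breast epithelium that does not form tumours, and MCF10A-Hras cells carry an introduced HRAS oncogene, which all 4 groups share. The groups were untreated control cells, control cells 12 h after 5 Gy of X-rays, untreated RBM6-KO cells, and RBM6-KO cells 12 h after 5 Gy, with 2 biological replicates (A and B) in each and 8 libraries in all. The knockout line is 1 clone, made with a pair of guide RNAs to an RBM6 exon and a Cas9 nickase, so that the effect of RBM6 loss and the particularities of the clone cannot be told apart.

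Library totals ran from 15355281 to 29832009 counts, the deepest being replicate B of irradiated control cells. RBM6 itself, an RNA-binding protein that regulates alternative splicing, had 66.5 and 67.8 CPM (normalised counts scaled to a common library size, as CPM throughout) in untreated control cells and 60.8 and 62.3 in untreated RBM6-KO cells. After IR it had 54.7 and 50.6 CPM in control cells and 43.6 and 34.2 in RBM6-KO cells. The log2 fold change in RBM6-KO cells was -0.14 ± 0.15 (SE) untreated and -0.40 ± 0.20 after IR, neither past the threshold (edgeR adjusted p = 0.712 and 0.535), and since the edit was designed to break the protein, counts per gene do not check it. All 9 markers of mammary basal epithelium were above 1 CPM in every group, with a summed level of 7967 to 13041 CPM. The 5 leukocyte markers summed to at most 1.17 CPM, with CD3E at 0, the 4 endothelial markers to at most 11.6 CPM, and the 5 luminal markers to 346 to 716 CPM. The 6 fibroblast markers summed to 79.9 to 81.1 CPM in untreated control, 91.4 to 112 CPM in irradiated control, 117 to 153 CPM in untreated RBM6-KO and 172 to 213 CPM in irradiated RBM6-KO cells, mostly DCN, and their part in the results was not tested.

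SR proteins carry one or more RNA recognition motifs and a domain rich in arginine-serine dipeptides. Kinases of the SRPK and CLK families phosphorylate that domain, and the proteins typically bind exonic enhancers and help the spliceosome to define exons. The hnRNPs coat nascent pre-mRNA and often oppose exon inclusion, although both families act in either direction depending on where they bind. Members of both families are known to tune their own level through poison exons, cassette exons that bring in a premature stop codon and send the transcript to nonsense-mediated decay (NMD), and splicing regulators of both families have been tied to the DNA damage response.

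In GENCODE 44, 27 of the 39 members had at least 1 transcript annotated as an NMD target (69.2%), all 12 SRSF and 15 HNRNP genes, against 39.2% of the 19683 protein-coding genes in the table. The exons below are cassette exons in NMD transcripts that overlap no exon of a protein-coding transcript, and other transcript types were not checked. They belong to SRSF11, the member whose transcript level moved most, and to SRSF3 and SRSF7, whose levels moved little. Each is printed in the sense of the gene from its first base to the stop codon, which is in capitals, read from the hg38 genome.
SRSF11, exon at chr1:70231095-70231203 (+): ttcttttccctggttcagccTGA
SRSF11, exon at chr1:70231859-70231975 (+): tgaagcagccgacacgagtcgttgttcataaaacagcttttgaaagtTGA
SRSF3, exon at chr6:36599821-36600276 (+): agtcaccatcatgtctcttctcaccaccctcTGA
SRSF7, exon at chr2:38748898-38749173 (-): ggcagaaaatttgagacggTGA
The first SRSF11 exon reaches its stop after 23 bases and the second after 50, each within an exon of 109 and 117 bases. The SRSF3 exon is 456 bases long and ends its reading frame after 34 of them. Counts per gene sum over such transcripts and the coding ones, so a change in the use of a poison exon cannot be read from them.

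The transcript levels of the members differed far more between genes than between conditions. Levels were compared between genes as normalised CPM per kb of the canonical transcript. Among SR proteins, SRSF5 was highest with a mean of 84.7 CPM per kb over the 8 libraries (range 71.1 to 101), followed by SRSF9 at 58.2 and SRSF7 at 52.4. SRSF5 stood above SRSF9 without overlap of the libraries, whereas from SRSF9 through SRSF7, SRSF11, SRSF4 and SRSF3 down to SRSF2 each gene overlapped its neighbour. The lowest SR proteins were SRSF10 at 9.84, SRSF8 at 6.58 and SRSF12 at 1.32 CPM per kb. The order depends on the length used: per kb of all annotated exons of a gene, SRSF7 came first and SRSF5 sixth. DYNLL1 and GATC overlap SRSF9 on the opposite strand, with 23935 and 2966 counts over the 8 libraries against 10334 for SRSF9. Whether counting used strand is not stated, so the level of SRSF9 is uncertain.

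The hnRNPs reached higher levels. HNRNPA1, a core particle protein that often acts as a splicing repressor, had 348 CPM per kb (range 297 to 401), HNRNPA2B1 had 232 and HNRNPC, which binds uridine tracts and keeps cryptic exons out of mRNA, had 178. Per kb of all annotated exons HNRNPA1 stayed first, while HNRNPAB ranked 2 and HNRNPA2B1 ranked 5. By the canonical length HNRNPA1 exceeded HNRNPA2B1 in all 8 libraries, and from HNRNPA2B1 down to HNRNPH3 each gene overlapped its neighbour in the order. Reads of HNRNPA1 can be shared with HNRNPA1L2, HNRNPA1L3 and many processed pseudogenes, so the levels of these 3 are uncertain. CBX3 overlaps HNRNPA2B1 on the opposite strand, with 29871 counts over the 8 libraries against 126053 for HNRNPA2B1. Lowest of the genes tested were HNRNPUL2 at 7.03 and HNRNPLL at 5.63 CPM per kb. The remaining 5 members were filtered out as low in every comparison. HNRNPCL3 was at 0 counts in all 8 libraries, which allows up to 0.101 to 0.195 CPM in a library at the limit of 3 counts. HNRNPCL2 had 1 count in all, HNRNPCL4 had 1 count in each of 2 libraries, HNRNPCL1 had 0 to 5 counts a library, and the readthrough locus HNRNPUL2-BSCL2, which overlaps HNRNPUL2, had 0 to 5. That left 34 members, 12 SRSF and 22 HNRNP, tested in each comparison.

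**Figure D1:**
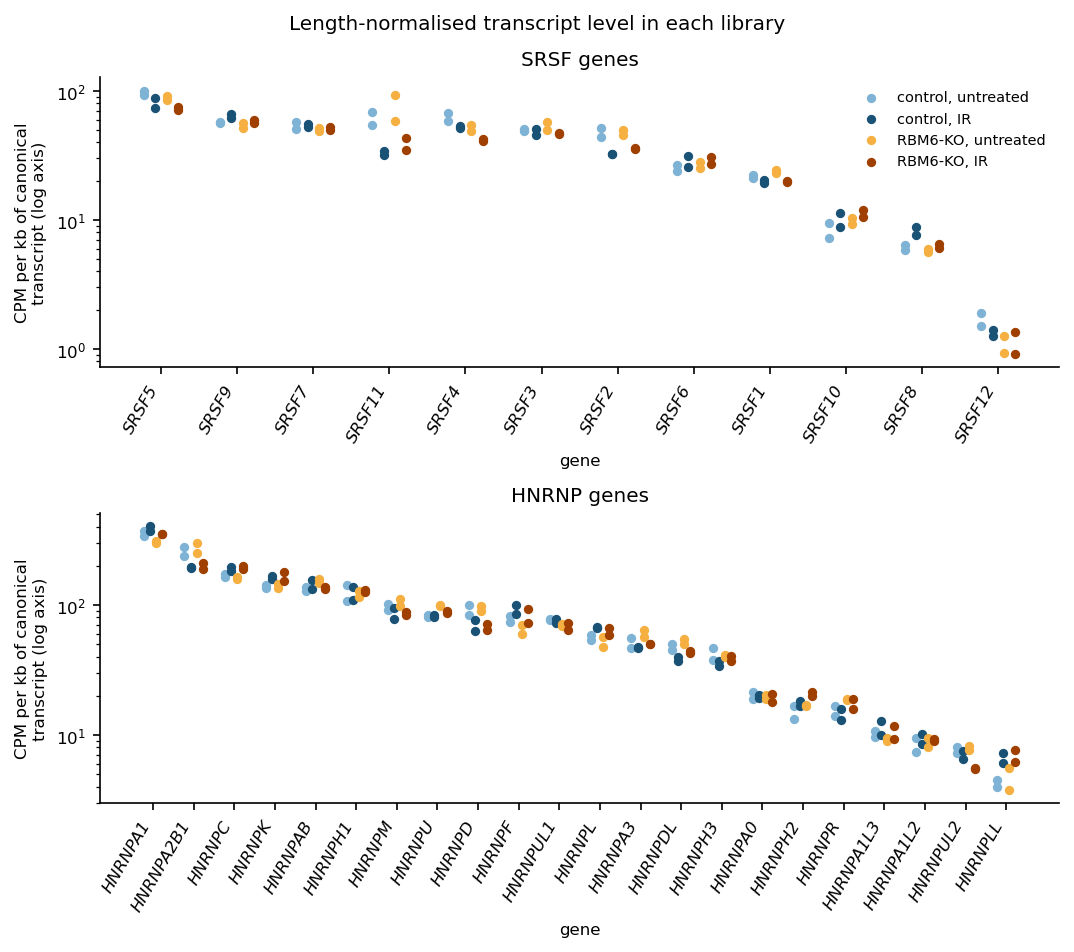
Normalised CPM per kb of the canonical transcript (log axis) for the 12 SRSF genes (top) and the 22 tested HNRNP genes (bottom), ordered by their mean; each point is 1 library, coloured by group. Genes range from 1.32 (SRSF12) to 348 (HNRNPA1), while the libraries of most genes stay close together and SRSF11 shows the widest separation by treatment.

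The first question was whether loss of RBM6 shifts these transcripts in untreated cells. None of the 34 members passed an adjusted p of 0.05, where 6.12% of the 15556 genes tested did (quasi-likelihood F test of edgeR, Benjamini-Hochberg adjusted). DESeq2 also called 0. None passed with a 2-fold change, against 3.12% of genes. At an unadjusted p under 0.05 there were 2, SRSF12 and SRSF4, against 18.4% of all genes. Log2 fold changes of the members ran from -0.63 to 0.29 with a median of 0.014, against 0.0072 over all genes, and 17 lay above and 17 below 0. For 33 of the 34 the 95% interval lay within a 2-fold change in either direction, and for 29 it lay within 1.5-fold, so that larger shifts lie outside the intervals of these members. The groups did not overlap for 16 members (47.1%), against 47.8% of all genes.

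SRSF12, a low-abundance SR protein able to oppose other SR proteins, had 6.77 and 5.44 CPM in control and 4.50 and 3.36 CPM in RBM6-KO cells. It was the lowest in log2 fold change at -0.63 ± 0.28 (adjusted p = 0.231), and the only member whose interval reached beyond 2-fold. SRSF4, a long SR protein that can regulate its own mRNA, had 156 and 135 CPM in control and 125 and 112 CPM in RBM6-KO cells, a difference of -0.31 ± 0.14 (adjusted p = 0.261). HNRNPF, which binds G-rich sequences, followed with -0.27 ± 0.14. In each of these the RBM6-KO libraries were below both control libraries.

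At the other end, HNRNPR had 129 and 108 CPM in control and 145 and 147 CPM in RBM6-KO cells, a log2 fold change of 0.29 ± 0.14 (adjusted p = 0.291). HNRNPU, a nuclear scaffold protein that binds RNA and chromatin, had 569 and 553 CPM in control and 672 and 687 CPM in RBM6-KO cells, 0.27 ± 0.13 (adjusted p = 0.305). Both were above the control libraries without overlap, and neither passed the threshold. SRSF11, also known as p54, lay between them at 0.28 ± 0.18, but its libraries overlapped, with 274 and 217 CPM in control and 233 and 366 CPM in RBM6-KO cells. It was called as higher only when replicate A of untreated RBM6-KO cells was left out (log2 fold change 0.56, adjusted p = 0.00447), and without replicate B the value was -0.071.

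SRSF3, SRSF6 and SRSF10 have each been tied to the DNA damage response. SRSF3, the smallest SR protein, which also takes part in mRNA export, had 215 and 206 CPM in untreated control and 209 and 241 CPM in untreated RBM6-KO cells. SRSF6 had 116 and 105 CPM against 122 and 110 CPM. SRSF10, which is dephosphorylated in heat-shocked and mitotic cells and then represses splicing, had 72.7 and 55.0 CPM against 70.9 and 79.6 CPM. All 3 overlapped between the genotypes, with log2 fold changes of 0.09, 0.06 and 0.23, and intervals of -0.20 to 0.38, -0.24 to 0.36 and -0.11 to 0.57. Their sign turned when the trend with GC content and length was removed. SRSF6 lies on chromosome 20, where the median over 419 genes tested was -0.27 in untreated cells, against 0.0072 over all genes. In irradiated cells the chromosome 20 median was -0.25 over 417 genes. The part of this shift in the value of SRSF6 was not tested.

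In irradiated cells the comparison of RBM6-KO with control gave the same count. No member passed the adjusted p (background 1.21% of 15587 genes) in edgeR or in DESeq2, and none had an unadjusted p under 0.05, against 11.1% of all genes. With a 2-fold change as well, 0 members passed, against 1.17% of genes. The median log2 fold change was 0.011, against 0.015 over all genes, and the values ran from -0.36 to 0.29. All 34 intervals lay within 2-fold and 25 within 1.5-fold. The groups were apart for 12 members (35.3%), against 38.2% of all genes.

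SRSF8, an intron-poor relative of SRSF2, had 32.8 and 37.9 CPM in irradiated control and 25.9 and 27.8 CPM in irradiated RBM6-KO cells, -0.36 ± 0.18 (adjusted p = 0.551). HNRNPUL2, a protein that has been placed at sites of DNA breaks, had 39.0 and 33.8 CPM against 29.1 and 28.5 CPM, -0.30 ± 0.18 (adjusted p = 0.659). SRSF4 was again low, with 118 and 123 CPM against 97.7 and 94.5 CPM and a log2 fold change of -0.29 ± 0.15 (adjusted p = 0.553). The RBM6-KO libraries lay below both control libraries for all 3. The highest values were those of HNRNPR (0.29 ± 0.17), SRSF11 (0.28 ± 0.17) and HNRNPH2 (0.27 ± 0.17). The untreated and the irradiated comparison share no library, and 25 of the 34 members had the same sign in both (73.5%), as did 73.5% of 14844 genes. As a description over 34 genes, which are no replicates of each other, the 2 sets of fold changes had a Pearson r of 0.68 and a Spearman rho of 0.75.

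**Figure D2:**
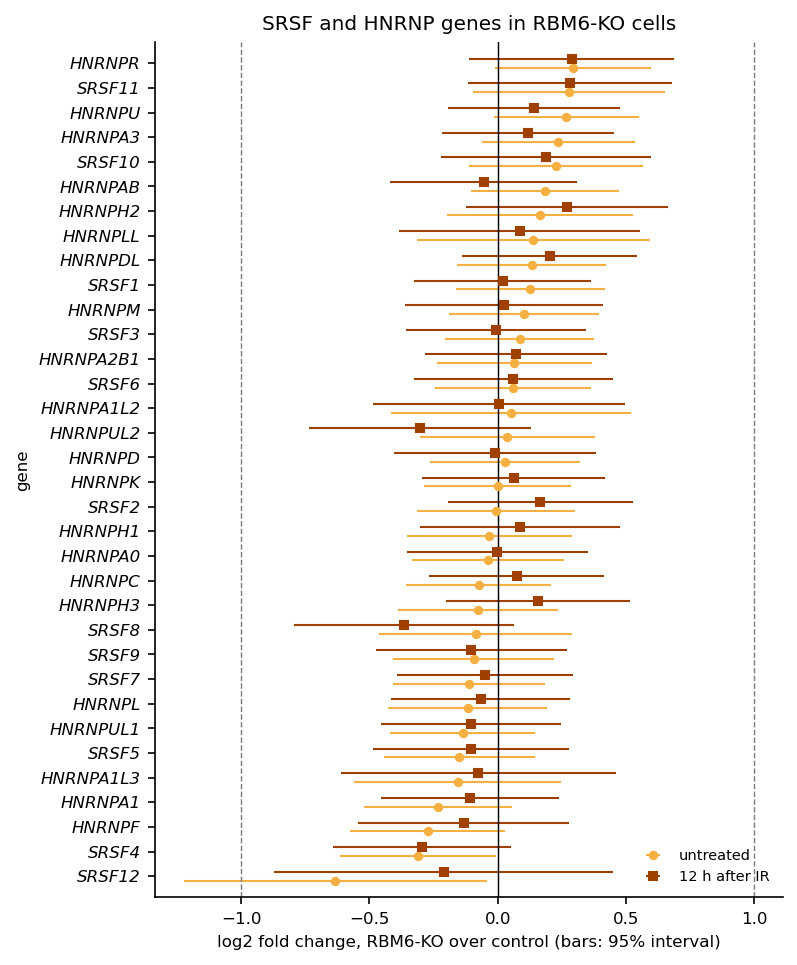
Log2 fold change of RBM6-KO over control cells for the 34 members tested, untreated (circles) and 12 h after IR (squares), with 95% intervals as bars and dashed lines at a 2-fold change. The estimates run from -0.63 to 0.29, the bars of all members but SRSF12 in untreated cells stay inside the dashed lines, and no member passed the adjusted p.

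The second question was how the transcripts respond to IR. The median log2 fold change of the members was -0.063 in control cells, against 0.017 over all genes, and -0.068 in RBM6-KO cells, against -0.0059. With the trend with GC content and length removed, the medians of the members were -0.22 and -0.15. That step leaves the median over all genes with a known GC content unchanged. In control cells 1 of 34 members passed the adjusted p, lower after IR, where 2.91% of the 15412 genes tested did so in that direction and 5.72% in either, and 6 had an unadjusted p under 0.05, against 25.4% of genes. In RBM6-KO cells 1 of 34 passed, also lower, against 3.23% of 15598 genes in that direction and 5.67% in either, and 7 had an unadjusted p under 0.05, against 29.6%. With replicate A of untreated control cells left out, the count in control cells was 0, and it was 5 without replicate A of irradiated control cells (SRSF11, SRSF2, HNRNPA2B1, HNRNPD and HNRNPLL) and 2 without replicate B of the latter. In RBM6-KO cells it was 0 without replicate B of untreated cells and 2, SRSF11 and HNRNPLL, without replicate A of untreated or of irradiated cells. With the added requirement of a 2-fold change no member passed in either, against 3.59% and 3.11% of genes.

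The member that fell was SRSF11 (ENSG00000116754, hg38 chromosome 1, 70205682 to 70253052, plus strand), an SR protein of nuclear speckles whose poison exons are printed above. In control cells it had 274 and 217 CPM untreated and 126 and 134 CPM after IR. The RBM6-KO libraries had 233 and 366 CPM untreated and 170 and 139 CPM after IR. Every irradiated library was below every untreated one, and the spread was widest in untreated RBM6-KO cells, at 300 ± 94.4 CPM (SD, n = 2). The log2 fold change was -0.97 ± 0.17 in control cells (95% interval -1.33 to -0.60, edgeR adjusted p = 0.0111) and -0.99 ± 0.22 in RBM6-KO cells (-1.48 to -0.51, adjusted p = 0.0376), in each case just short of 2-fold. The call was lost in control cells without replicate A of untreated control (-0.81, adjusted p = 0.114) and in RBM6-KO cells without replicate B of untreated RBM6-KO (-0.62, adjusted p = 0.179), the libraries with the highest SRSF11 level of their groups. The responses in the 2 genotypes differed by -0.02 ± 0.30 on the log2 scale (interaction, 95% interval -0.67 to 0.63).

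SRSF2, also called SC35, an SR protein that binds exonic enhancers and is a marker of nuclear speckles, was next in control cells. It had 97.2 and 83.1 CPM untreated and 61.2 and 61.1 CPM after IR, a log2 fold change of -0.61 ± 0.17 (adjusted p = 0.0536). SRSF2 in RBM6-KO cells was at 86.8 and 93.7 CPM untreated and 66.6 and 67.6 CPM after IR, -0.46 ± 0.15 (adjusted p = 0.0818). The irradiated libraries were below the untreated ones in both genotypes. In control cells SRSF2 passed the threshold with DESeq2 (adjusted p = 0.0337) and in edgeR with DESeq2 size factors (0.0466) or upper-quartile scaling (0.0293). MFSD11 overlaps it on the opposite strand, with 1946 counts over the 8 libraries against 11571 for SRSF2, and whether counting used strand is not stated.

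Among hnRNPs the lowest values were those of HNRNPA2B1 and HNRNPD in control cells. In RBM6-KO cells they were those of HNRNPUL2, HNRNPD and HNRNPA2B1. HNRNPA2B1, which sorts and packages many RNAs, had 1011 and 868 CPM untreated and 716 and 698 CPM after IR in control cells, -0.46 ± 0.17 (adjusted p = 0.117). The RBM6-KO values were 902 and 1077 CPM against 761 and 689 CPM, -0.48 ± 0.15 (adjusted p = 0.0822). HNRNPD, also called AUF1, which binds AU-rich elements and promotes mRNA decay, had 303 and 259 CPM untreated and 234 and 194 CPM after IR in control cells, -0.44 ± 0.17 (adjusted p = 0.140). The values in RBM6-KO cells were 277 and 300 CPM untreated and 218 and 197 CPM after IR, -0.51 ± 0.15 (adjusted p = 0.0664), and there DESeq2 called HNRNPD (adjusted p = 0.0413). For HNRNPA2B1 and HNRNPD all irradiated libraries of a genotype lay below its untreated ones.

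HNRNPUL2 was at 42.3 and 37.8 CPM untreated and 39.0 and 33.8 CPM after IR in control cells, where the groups overlapped. In RBM6-KO cells it was at 39.8 and 43.0 CPM untreated and 29.1 and 28.5 CPM after IR, -0.56 ± 0.16 (adjusted p = 0.0671). The difference between the 2 responses was -0.36 ± 0.22, the lowest interaction of any member, and its 95% interval of -0.86 to 0.13 holds 0.

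HNRNPLL, known for the alternative splicing of CD45 in lymphocytes, had the highest log2 fold change in both genotypes. It had 18.7 and 16.4 CPM untreated and 25.1 and 30.1 CPM after IR in control cells, 0.60 ± 0.21 (adjusted p = 0.109). In RBM6-KO cells it had 23.1 and 15.6 CPM untreated and 25.8 and 31.7 CPM after IR, 0.53 ± 0.22 (adjusted p = 0.148). The irradiated libraries were above the untreated ones in both, and neither difference passed. SRSF8 (0.38 ± 0.20) and SRSF10 (0.22 ± 0.19) were the next highest in control cells, and HNRNPF (0.32 ± 0.17) and HNRNPH2 (0.26 ± 0.16) in RBM6-KO cells. SRSF3 had 213 and 193 CPM in irradiated control and 200 and 196 CPM in irradiated RBM6-KO cells, differences of -0.10 and -0.22 from untreated cells. SRSF6, at 112 and 136 CPM and at 118 and 135 CPM after IR, differed by 0.11 and 0.09. None of these passed.

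**Figure D3:**
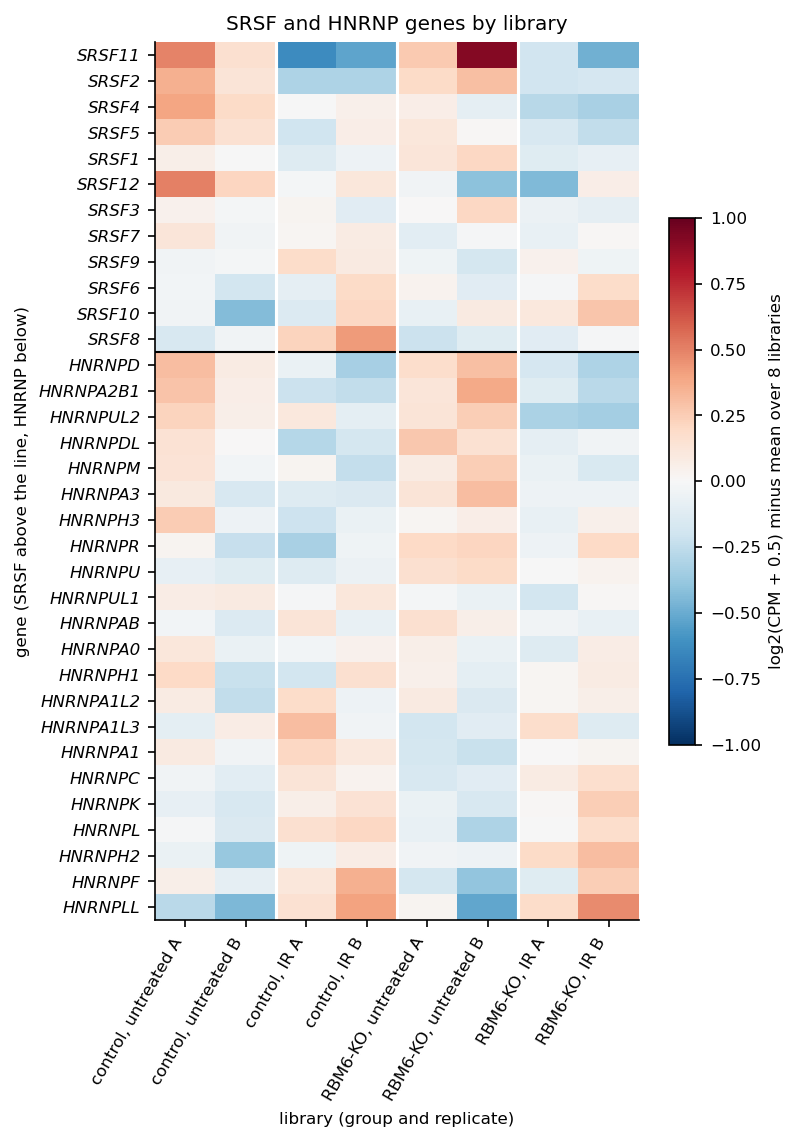
Level of the 34 tested members in each of the 8 libraries, as log2(CPM + 0.5) minus the gene's mean over all libraries (blue lower, red higher), ordered within each family by the summed response to IR. SRSF11 tops its family with the lowest response and HNRNPLL closes the hnRNPs with the highest, and replicate B of untreated RBM6-KO cells holds the highest SRSF11 value.

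The responses to IR of the members could be set side by side in the 2 genotypes. These comparisons share no library, and 31 of 34 members had the same sign in both (91.2%), against 83.6% of 14866 genes. Across members, as a description, Pearson's r was 0.89 (0.85 without SRSF11) and Spearman's rho was 0.88, where r over all genes was 0.79. The groups did not overlap for 19 members in control cells (55.9%, against 57.9% of genes), and for 23 in RBM6-KO cells (67.6%, against 62.1%). In the test of the interaction over all 8 libraries no member passed, nor did any of the 16549 genes (0% called), in edgeR, and no member passed in DESeq2. No member had an unadjusted p under 0.05, against 1.85% of genes. Interaction values ran from -0.36 (HNRNPUL2), -0.30 (SRSF8) and -0.26 (HNRNPAB) to 0.15 (SRSF2), 0.21 (HNRNPH3) and 0.41 (SRSF12). For 33 of 34 members the interval lay within 2-fold and for 22 within 1.5-fold. Smaller differences between the genotypes in the response could have been missed.

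**Figure D4:**
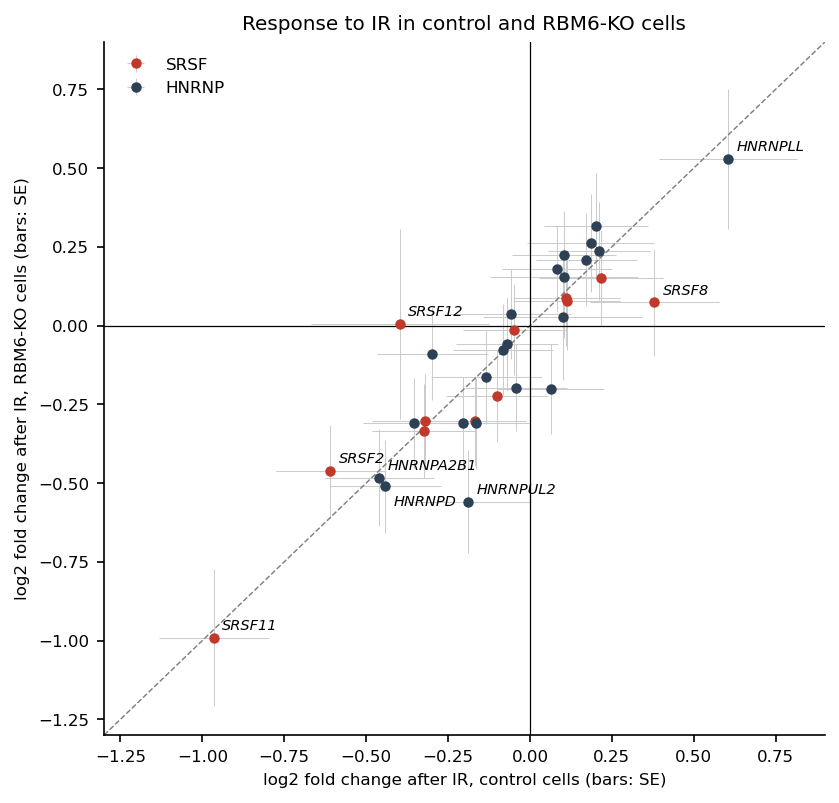
Log2 fold change 12 h after IR in control cells (x axis) against RBM6-KO cells (y axis) for the 34 members, with SE as bars and a dashed line of equal response, red points for SRSF and dark points for HNRNP genes. SRSF11 sits alone at -0.97 and -0.99, and 31 of 34 points have the same sign in both.

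The wider splicing machinery gave the setting for these values, in gene lists chosen with earlier results of these data known. Of 31 SR-related proteins, which carry arginine-serine-rich stretches outside the SRSF family, 30 were tested in control cells and 8 were lower after IR (26.7%), with 0 higher, where 2.91% of all genes were lower. In RBM6-KO cells 9 of 29 were lower (31.0%) and 0 higher, where 3.23% of all genes were lower. Their median log2 fold changes were -0.33 and -0.42. The names shared by both lists were 7, which is 87.5% of the first and 77.8% of the second. With replicate A of untreated control cells left out the count in control cells was 4, and it was 5 when all 8 libraries were fitted together and 12 without replicate A or without replicate B of irradiated cells, and in RBM6-KO cells it ran from 7 to 12 with 1 library left out.

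PPIG, a nuclear cyclophilin with an arginine-serine-rich tail, had 112 and 77.3 CPM untreated and 39.6 and 29.5 CPM after IR in control cells, a log2 fold change of -1.50 ± 0.22 (adjusted p = 0.00507). The RBM6-KO level fell from 135 and 221 CPM to 51.7 and 25.0 CPM, -2.24 ± 0.34 (adjusted p = 0.0135). RBM25, a regulator of alternative exons, fell by 1.30 and 1.48 on the log2 scale, LUC7L3, a U1 snRNP-associated factor, by 1.22 and 1.27, and SREK1, a splicing regulator that binds SR proteins, by 1.05 and 1.42. These 4 genes passed both the adjusted p and the 2-fold limit in each genotype, except that RBM25 in RBM6-KO cells had a DESeq2 adjusted p of 0.0527, and that SREK1 in control cells did not pass without replicate A of untreated control cells (-0.64, adjusted p = 0.285). CLASRP, NKTR and PNN passed both limits in RBM6-KO cells, with -1.11, -1.19 and -1.12, and the adjusted p alone in control cells, where each call was lost without 1 of the untreated libraries. RNPS1, an exon junction protein that can act as a splicing activator, had log2 fold changes of -0.36 and -0.27 and did not pass.

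The other lists held few calls. In control cells after IR, 1 of 13 hnRNPs known by other symbols was lower, CIRBP, a cold-inducible RNA-binding protein (-0.82), and it was also the 1 called in RBM6-KO cells (-0.79). Core spliceosome genes had 2 of 52 lower in each genotype, SF3A2 in both, with U2AF1 in control and DDX46 in RBM6-KO cells. U2AF1, which reads the AG of the 3′ splice site, was the only one past 2-fold, with 8.97 and 8.93 CPM untreated and 4.09 and 4.96 CPM after IR in control cells (-1.03 ± 0.26, adjusted p = 0.0414). It has near-identical sequence elsewhere in the genome build, so its low level is uncertain, and the call was lost without either untreated control library (adjusted p = 0.126 and 0.190). None of 22 kinases, phosphatases and import factors of SR proteins was called in control cells, and 1, PRPF4B, was lower in RBM6-KO cells (-0.86). Of 41 other splicing regulators, 0 were called in control cells and RBM6 itself in RBM6-KO cells (-0.69 ± 0.17, adjusted p = 0.0498), a call lost on leaving out any RBM6-KO library but replicate A of irradiated cells (adjusted p = 0.0523 to 0.310). CIRBP, SF3A2, DDX46 and PRPF4B were named after their values were seen, and each lost its call without 1 or more libraries.

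Between the genotypes in untreated cells, 5 of 30 SR-related genes passed (16.7%, against 6.12% of genes). SRRM3, which promotes microexons in neurons, was the 1 that was lower, with 78 and 96 counts in untreated control and 1 and 2 counts in untreated RBM6-KO cells (adjusted p = 3.58e-06), and 66 and 125 against 2 and 6 counts after IR (adjusted p = 0.0120). PPIG, U2SURP, BCLAF1 and SCAF11, named after their values were seen, were higher by 0.72 to 0.91 on the log2 scale. With the trend with GC content and length removed, the values of these 4 genes were 0.63, 0.52, 0.69 and 0.52. That count of 4 was 0 when all 8 libraries were fitted together or without replicate B of untreated control cells, 8 without replicate A of the latter and 10 without replicate A of untreated RBM6-KO cells. In irradiated cells none of the genes in the other 4 lists passed.

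MALAT1 and NEAT1, chosen with results of these data known, were also lower after IR. MALAT1, a long noncoding RNA of nuclear speckles, had 6669 and 5013 CPM in untreated and 2091 and 1577 CPM in irradiated control cells, and 8602 and 14347 CPM in untreated and 5260 and 1824 CPM in irradiated RBM6-KO cells. Its log2 fold change after IR was -1.72 ± 0.22 in control cells (edgeR adjusted p = 0.00365) and -1.72 ± 0.42 in RBM6-KO cells (0.0472). That of NEAT1, which builds paraspeckles, was -1.49 ± 0.17 (0.00173) and -1.55 ± 0.20 (0.00783). In untreated RBM6-KO against control cells MALAT1 was higher by 0.96 ± 0.20 (edgeR adjusted p = 0.00540), whereas NEAT1 differed by 0.045 (adjusted p = 0.920). After IR the genotype difference of MALAT1 was 0.99 ± 0.44 and did not pass (edgeR adjusted p = 0.482), with overlapping libraries. That of NEAT1 was 0.013 (adjusted p = 0.995). SRSF11 and MALAT1 were higher in replicate A than B of untreated control cells and higher in B than A of untreated RBM6-KO cells, an order shared by 6 of the 7 SR-related genes that were lower in both genotypes and by 21.9% of all 16549 genes. NEAT1 had the other order in untreated control cells, with 1340 CPM in A and 1563 CPM in B. The part of these values in the results for SRSF11 was not tested.

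**Figure D5:**
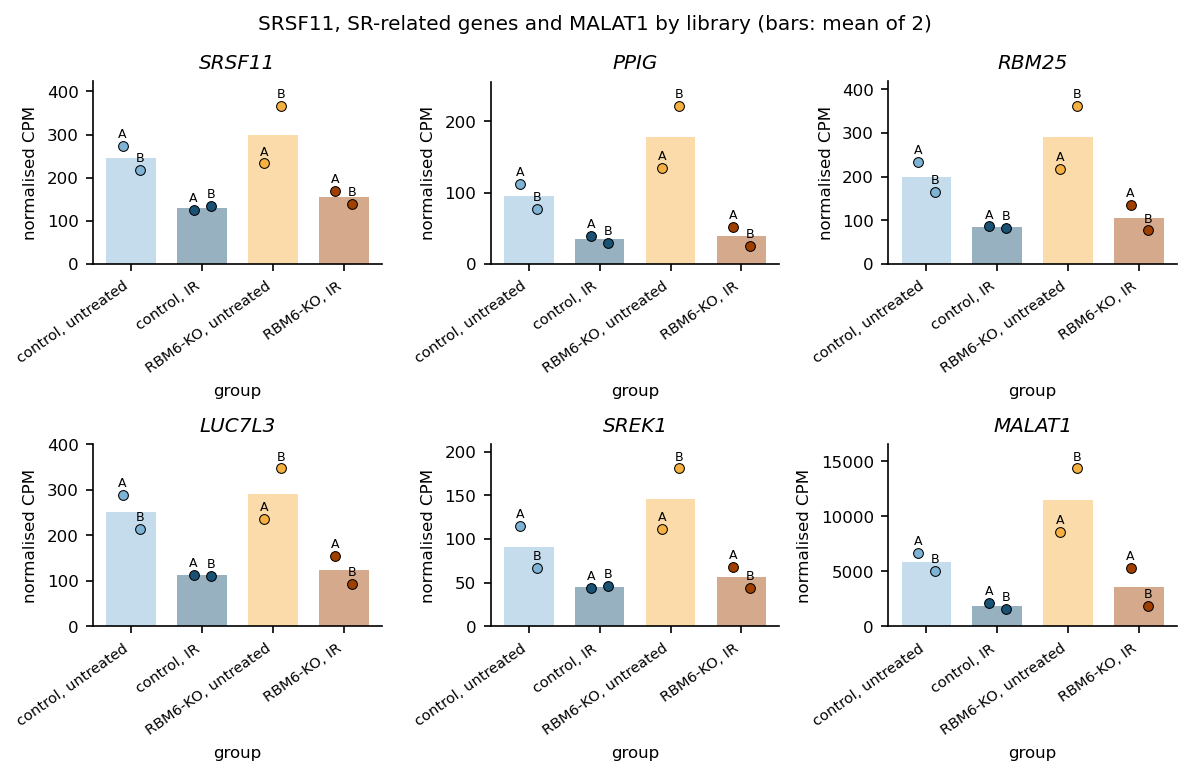
Normalised CPM of SRSF11, of 4 SR-related genes and of MALAT1 in each group; bars are means of 2 libraries, points are the libraries A and B, and axes start at 0 with a scale for each gene. All 6 are lower in irradiated than in untreated libraries of the same genotype, and replicate B of untreated RBM6-KO cells is the highest library in every panel.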

How the data were processed

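RNA of 8 libraries was sequenced after poly(A) selection, and the authors deposited raw counts per Ensembl gene, 1 column a library, from reads aligned to hg38. STAR and DESeq2 are named in the submitters' processing notes. The counting tool, annotation and strand setting are not given in the sources used here. Symbols came from GENCODE 44, which matched 57392 of 58233 gene IDs. The members and gene lists were chosen with earlier results of these data known. Library totals were 15355281 to 29832009 counts. A limit of 3 counts then corresponds to 0.101 to 0.195 CPM, for counting error only.

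Only the libraries of the groups compared entered each fit, all 8 for the interaction, with the edgeR 4.0.16 quasi-likelihood test (R 4.3.3) after filterByExpr and TMM scaling. P-values were adjusted by Benjamini-Hochberg over all genes tested, and genes were called at an adjusted p under 0.05, with or without a 2-fold change. The scripts were tested on simulated data. The p-values rest on the spread between 2 libraries a group, which the fit draws toward the trend over all genes. Genes were named by rule: members past the adjusted p, the 3 highest and 3 lowest members in fold change and in level, members filtered out as low, SRSF3, SRSF6, SRSF10, RBM6, RNPS1, and list genes past both limits. Exceptions are marked. Alternatives were DESeq2 1.42.0, other scaling, filters and fits, removal of the trend with GC content and length, a replicate block, and leaving out each library. One result of the gene lists is not reported here.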

Additional observations from a re-analysis of the deposited data

How the results depend on the processing

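The lower SRSF11 level after IR kept its direction in every alternative run. Counts of genes called in alternative fits, here and above, stand without the share of all genes called in the same fit. They show how the calls depend on the fit and are no result about the members. The number of members called in control cells after IR was 2 (SRSF11 and SRSF2) with DESeq2 size factors, upper-quartile scaling, the DESeq2 Wald test, no filter, or all 8 libraries in 1 fit, and 0 to 5 with 1 library left out. In RBM6-KO cells it was 2 with the DESeq2 Wald test, 3 with no filter and 0 to 2 with 1 library left out. Between genotypes in untreated cells it was 0 to 1 with 1 library left out. The median of the members ran from -0.058 to 0.11 in untreated RBM6-KO against control cells with 1 library left out, and was -0.22 for IR in control cells once the GC content and length trend was removed.

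The labels do not say what the replicate letters share, and 2 pairs cannot show a pairing. The A minus B differences of the 2 groups compared correlated at -0.28 for IR in control cells, -0.36 for IR in RBM6-KO cells, 0.12 untreated and 0.48 after IR (16549 genes). With the replicate block the count of members called was 3 (HNRNPR, SRSF4 and SRSF8) for the genotypes after IR, 1 for IR in each genotype, and 0 untreated and for the interaction. With the letters crossed, a pairing chosen after seeing the data, it was 5 for IR in control and 21 in RBM6-KO cells. The share of all genes called with the block or with crossed letters is not given here. These counts are therefore no result about the members. RBM6 was called lower in irradiated RBM6-KO than control cells under the block (-0.41, adjusted p = 0.0169). The response of RBM6 to IR in RBM6-KO cells (adjusted p = 0.0924) and U2AF1 in control cells (0.0543) were not called under the block.

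Values near 0 changed sign. Removing the GC content and length trend gave -0.015 for SRSF10, -0.055 for SRSF3 and -0.062 for SRSF6 in untreated RBM6-KO against control cells, -0.046 for SRSF10 and -0.092 for SRSF6 after IR, and -0.023 and -0.083 for SRSF6 after IR in control and RBM6-KO cells. Without a filter SRSF3 was 0.0071 for the genotypes after IR. With 1 library left out, the genotype difference in untreated cells ran from -0.071 to 0.56 for SRSF11, from -0.0055 to 0.17 for SRSF3 and from -0.032 to 0.14 for SRSF6. After IR it ran from -0.10 to 0.074 for SRSF3 and from -0.065 to 0.18 for SRSF6. The response of SRSF6 in control cells ran from -0.016 to 0.24, and the interaction from -0.27 to 0.13 for SRSF10, from -0.30 to 0.33 for SRSF11 and from -0.14 to 0.14 for SRSF6. The cause was not tested. Where a group is left with 1 library, that library is assumed to vary like the other groups.

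Counts per gene cannot show splicing. With 2 libraries a group, changes under about 1.5-fold were often not detectable, and larger ones could be missed. HNRNPLL, at 1.52-fold after IR in control cells, did not pass (edgeR adjusted p = 0.109). Of 189 genes called between the genotypes after IR, 182 were past 2-fold, and of 952 called in untreated cells, 486 were.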
